A study of Mus musculus with 24 samples.

Results

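The Ms4a genes encode small membrane proteins that cross the lipid bilayer several times, and a run of them sits side by side in the mouse genome. The 8 members described here, Ms4a3, Ms4a4a, Ms4a4c, Ms4a6b, Ms4a6c, Ms4a6d, Ms4a7 and Ms4a8a, were chosen by gene symbol as the family members of myeloid cells. The Ensembl identifiers of the deposited table were matched to symbols, and all 8 were found among its 17301 genes. Their RNA was followed in 4 myeloid populations sorted from normal colon lamina propria (LP) and from colon tumours, with 3 libraries in each of 8 groups. Of the 8 members, 7 reached a mean of 1 RPKM (reads scaled to gene length and to the size of the library) in at least 1 group and were tested among 12878 genes, and Ms4a3 did not.

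The LP came from C57BL/6J mice and is called healthy in the labels. The tumours came from mice with the Apc Min/+ allele, a truncating mutation of the Wnt pathway brake Apc, on the C57BL/6J background, in which adenoma formation in the colon was sped up with dextran sodium sulphate (DSS) in the drinking water. Mice of both sexes were 6 to 8 weeks old when DSS was given for 1 week, and tumours were taken 4 weeks later at 3 to 4 months of age. DSS is also described for control C57BL/6J mice, so whether the LP donors had received it was not settled. In each tissue the sorted populations were F4/80hi MHCIIhi macrophages, F4/80hi MHCIIlow macrophages, Ly6Chi MHCII- monocytes and F4/80- CD11b+ neutrophils, and each library was made from the pooled tissue of 13 to 15 mice. Genotype, tissue, an EDTA step (LP alone), digestion time, use of DNase and the density gradient all changed together between LP and tumour. Where control mice had DSS, its dose differed too. The parts of these in a tumour difference cannot be told apart.

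Ms4a proteins are best known from the B cell antigen CD20, the product of Ms4a1, and from the beta chain of the high-affinity IgE receptor. In macrophages MS4A4A sits in lipid rafts beside Dectin-1, the beta-glucan receptor encoded by Clec7a, which signals through Syk and Card9, and human variants in the MS4A cluster go with the amount of soluble TREM2. Ms4a3 marks the bone marrow progenitors that give rise to granulocytes and monocytes and is switched off as these cells mature, while Ms4a8a has been described in macrophages under anti-inflammatory stimuli. Ly6Chi monocytes that enter the gut can gain MHC class II and lose Ly6C as they turn into macrophages, whereas neutrophils arrive mature and are short-lived.

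The 8 genes lay within 573 kb of chromosome 19 (GRCm38, GENCODE M21), with 4 on each strand, and all are annotated as protein coding. From the proximal end, Ms4a8a was at chr19:11067471-11081102, Ms4a7 at chr19:11321039-11336146, Ms4a4a at chr19:11375523-11392790 and Ms4a4c at chr19:11404770-11427246. Further along came Ms4a6c at chr19:11469366-11482192, Ms4a6b at chr19:11516512-11531256, Ms4a6d at chr19:11586604-11604849 and Ms4a3 at chr19:11629496-11640851. Neighbours of this kind can share reads, which was checked with windows of 51 bases, the read length. For Ms4a3, Ms4a4a and Ms4a8a no window occurred in another gene's transcripts, and for Ms4a7, Ms4a6d, Ms4a6b and Ms4a4c the share of windows was 0.284%, 2.37%, 3.4% and 7.9%. Ms4a6c stood apart, with 51.1% of its windows found elsewhere, since 1088 of its 2050 exon bases lie over BE692007, an antisense gene. How reads in exons shared by 2 genes were counted is not given in the sources used here, so Ms4a6c values are uncertain to that extent and BE692007 is given beside them.

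Ms4a6b and Ms4a6c lie next to each other on the plus strand and were the 2 members with higher RNA in tumour macrophages of both subsets, so the DNA before their starts is shown. The stretches come from the RefSeq promoter table (GRCm38.p6), which held 7 of the 8 members, with bases covered by exons left out. Ms4a6b is at chr19:11518309-11518452 and Ms4a6c at chr19:11469118-11469365, both on the plus strand, 5′ to 3′. Capitals mark the 4 runs of 8 or more bases that are identical in the 2 genes within their best local alignment.
Ms4a6b: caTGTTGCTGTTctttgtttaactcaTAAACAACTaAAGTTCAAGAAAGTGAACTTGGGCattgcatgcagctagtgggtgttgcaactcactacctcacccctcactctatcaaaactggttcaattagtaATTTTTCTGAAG
Ms4a6c: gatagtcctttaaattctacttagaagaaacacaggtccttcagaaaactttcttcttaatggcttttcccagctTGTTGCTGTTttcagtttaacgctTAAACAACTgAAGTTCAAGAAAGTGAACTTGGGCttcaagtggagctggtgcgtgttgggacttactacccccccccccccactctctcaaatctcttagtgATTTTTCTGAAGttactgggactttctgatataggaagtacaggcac

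The 2 stretches were identical at 116 of 146 aligned columns, or 79.5%, and the longest identical run was 24 bases. The other 19 pairs of members whose alignments covered 40 columns or more were identical at 54.9% to 64.8% of them. The Ms4a6b stretch also lies in the first intron of 1 longer annotated transcript. On either strand of the 250 bases before the start, GAGGAA, the core of the site bound by PU.1, occurred in Ms4a4c alone, 61 bases before its start, and in 23.3% of 32851 promoters. TGANTCA, an AP-1 type site, occurred in Ms4a8a alone, 244 bases before its start, and in 6.75% of promoters. The STAT type letters TTCNNNGAA were in none of the 7 members, against 7.02% of promoters, and the letters TATAAA were in none against 12.4%.

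The libraries held 12.8 to 41.7 M reads on genes (median 26.4 M), so that 1 read is a small part of any value above 1 RPKM. The library sizes behind the deposited values were 0.466 to 0.682 of the summed reads in neutrophils and 0.981 to 1.51 in the other libraries, which raised every neutrophil value relative to its reads. The markers named next followed the labels within each tissue. The 9 macrophage markers summed to 4260 to 8110 RPKM in macrophage libraries and 601 to 1300 elsewhere, and the 8 neutrophil markers to 12200 to 32800 in neutrophils and at most 691 elsewhere. The 7 monocyte markers summed to 897 to 3530 in monocytes, 650 to 1290 in neutrophils and at most 453 in macrophages, and the 5 MHC class II genes to 16700 to 45700 in MHCIIhi and 878 to 9860 in MHCIIlow macrophages. RNA was from bulk sorts, so fewer cells of a type and less RNA per cell cannot be told apart.

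Values below are log2 RPKM as mean ± SD (n = 3), and single libraries are listed by the labels' donor number, here called the pool, in the order III, IV, V for LP (II, III, IV for LP MHCIIlow macrophages), I, V, VII for tumour macrophages and I, II, V for tumour monocytes and neutrophils. The summed RNA of the family was of the same order in macrophages and monocytes and far lower in neutrophils. Summed over the 8 members, the mean was 1270 RPKM in LP MHCIIhi macrophages, 1420 in LP MHCIIlow macrophages and 1680 in LP monocytes, and 62.9 in LP neutrophils. In tumours the same sums were 1310, 1250, 1800 and 55.4 RPKM. Ms4a4a and Ms4a6d supplied most of this summed RPKM in every group, while Ms4a7 and Ms4a4c changed places between macrophages and monocytes.

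**Figure D1:**
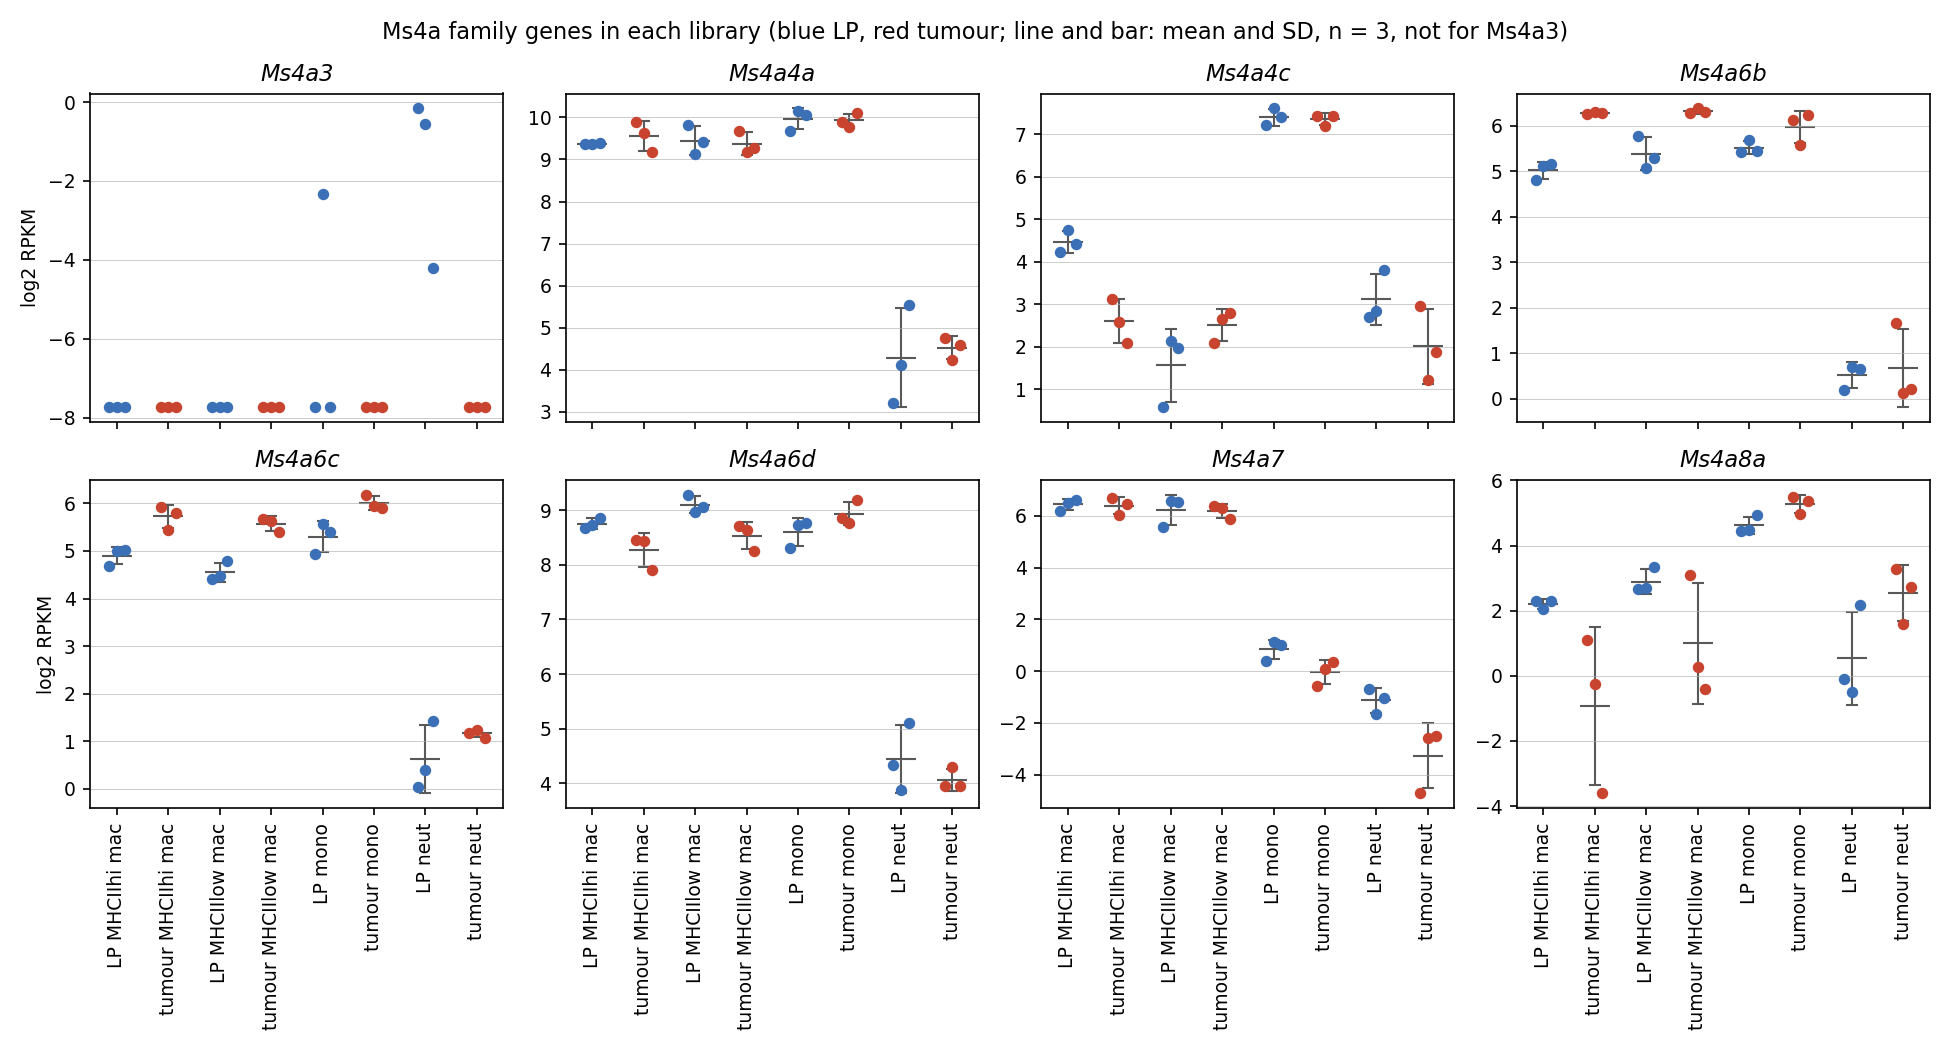
Level of each of the 8 genes (log2 RPKM, vertical axis, a separate scale per panel) in the 24 libraries by group, with LP in blue and tumour in red, points for libraries and a line and bar for the mean and SD of 3. Ms4a7 separated macrophages from all other groups, Ms4a4c and Ms4a8a were highest in monocytes, and Ms4a3 sat at the value given to 0 reads (-7.73) in 20 libraries, which carries no mean.

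**Figure D2:**
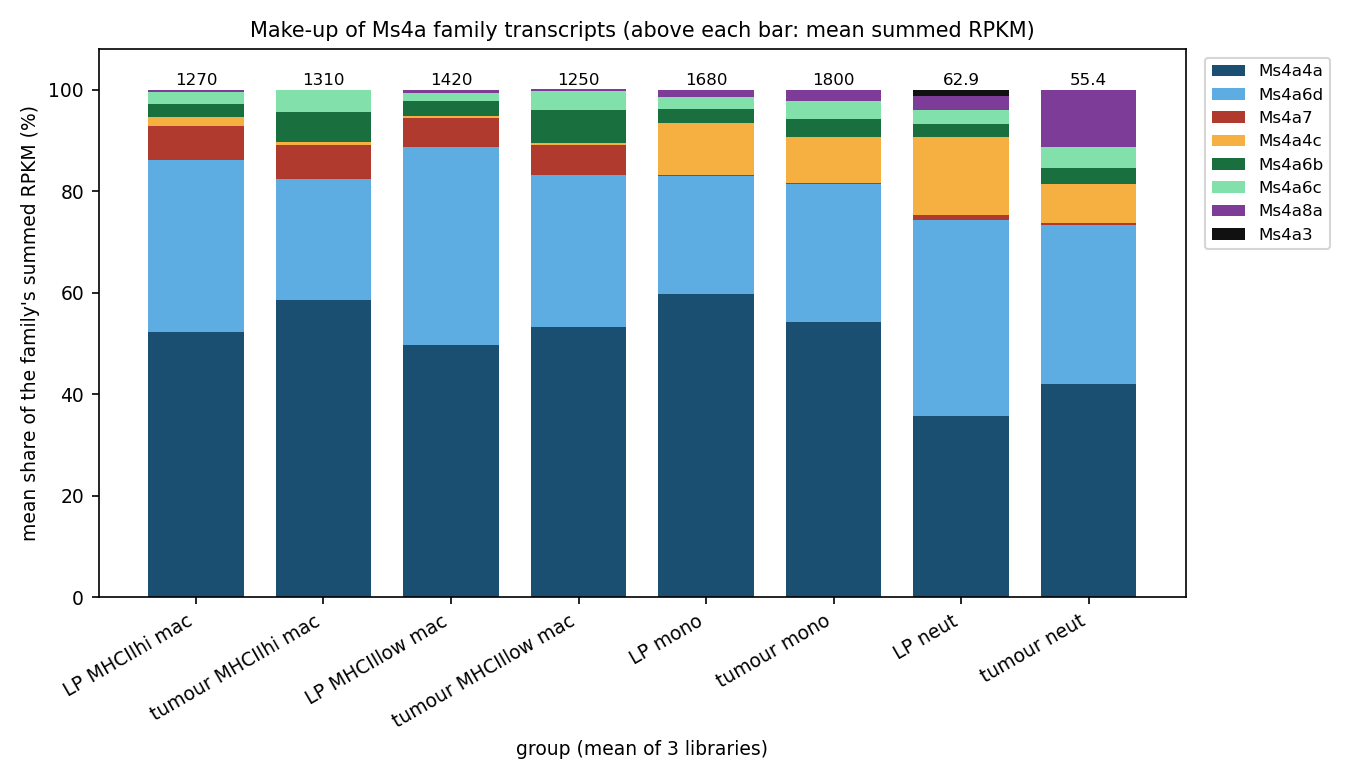
Mean share of each gene in the summed RPKM of the 8 genes (percent, vertical axis, stacked bars) in each group of 3 libraries, with the mean summed RPKM above each bar. Ms4a4a and Ms4a6d together filled most of every bar, Ms4a7 filled 5.83% to 6.83% of the macrophage bars and at most 0.909% of the others, and Ms4a4c filled 7.88% to 15.3% of the monocyte and neutrophil bars and at most 1.76% of the macrophage bars.

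Ms4a4a, the Dectin-1 partner, had the highest RPKM of the members in macrophages and monocytes of both tissues, at 49.7% to 59.8% of the family's RPKM. This rank depends on the scaling to gene length, 836 exon bases for Ms4a4a and 1735 for Ms4a6d. In reads, LP MHCIIhi macrophages had 17592 to 26490 for Ms4a4a and 25283 to 34907 for Ms4a6d. LP monocytes had 17231 to 41708 and 13734 to 32526. It stood at 9.38 ± 0.01 in LP MHCIIhi macrophages, 9.45 ± 0.34 in LP MHCIIlow macrophages and 9.96 ± 0.25 in LP monocytes. The tumour values were 9.56 ± 0.35, 9.37 ± 0.27 and 9.93 ± 0.16. These 6 groups overlapped with their neighbours in the order of means, and a break came only before neutrophils, at 4.29 ± 1.18 in LP and 4.53 ± 0.26 in tumours. The LP neutrophil libraries spread widely, reading 3.21, 4.12 and 5.54.

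Ms4a6d, whose product forms a surface complex with the macrophage receptor Vsig4, came second, with 23.3% to 39.0% of the family's RPKM in macrophages and monocytes. Its LP means were 8.75 ± 0.09 in MHCIIhi macrophages, 9.10 ± 0.16 in MHCIIlow macrophages and 8.60 ± 0.26 in monocytes. In tumours they were 8.27 ± 0.32, 8.53 ± 0.25 and 8.94 ± 0.21. The order of these 6 groups held no break either, and both neutrophil groups lay clearly under them, at 4.44 ± 0.63 in LP and 4.07 ± 0.20 in tumours.

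Ms4a7, a gene of mature macrophages, followed the macrophage gate. LP MHCIIhi libraries read 6.20, 6.50 and 6.61 and LP MHCIIlow libraries 5.57, 6.58 and 6.55. Tumour MHCIIhi libraries read 6.67, 6.04 and 6.47 and tumour MHCIIlow libraries 6.36, 6.30 and 5.86. The 4 macrophage groups overlapped one another, and all 12 libraries stood above every monocyte library. LP monocytes read 0.41, 1.12 and 1.00, tumour monocytes -0.56, 0.08 and 0.37, and neutrophils lower still, at -0.68, -1.65 and -1.05 in LP and -4.72, -2.58 and -2.49 in tumours. Each of these 4 groups was separate from the next in the order of means, although the last rests on 2 to 6 reads a library.

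Ms4a4c had the opposite arrangement. LP monocytes read 7.21, 7.61 and 7.40 and tumour monocytes 7.43, 7.19 and 7.44, overlapping each other and standing above all other libraries. LP MHCIIhi macrophages came next, at 4.24, 4.74 and 4.42, and were separate from both sides. The rest overlapped in the order of means, with LP neutrophils at 2.70, 2.85 and 3.81, tumour MHCIIhi macrophages at 3.12, 2.59 and 2.08 and tumour MHCIIlow macrophages at 2.08, 2.64 and 2.80. Tumour neutrophils read 2.96, 1.21 and 1.87, and LP MHCIIlow macrophages were the lowest by mean at 0.58, 2.13 and 1.97.

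Ms4a8a was also highest in monocytes. Tumour monocytes read 5.49, 4.97 and 5.38, just above LP monocytes at 4.43, 4.49 and 4.93, and both were separate from all other groups. LP MHCIIhi macrophages read 2.30, 2.04 and 2.30, and LP MHCIIlow macrophages read 2.66, 2.69 and 3.33. Tumour macrophages were far more uneven, at 1.10, -0.26 and -3.61 in the MHCIIhi subset, where the fewest reads in a library were 4, and at 3.09, 0.28 and -0.39 in the MHCIIlow subset. In both tumour subsets pool I was the highest and pool VII the lowest. The 6 epithelial markers summed to 65.5, 34.9 and 7.15 RPKM in the same MHCIIhi libraries and to 188, 12.6 and 27.2 in the MHCIIlow ones. Their part in the Ms4a8a values was not tested. Neutrophils read -0.09, -0.49 and 2.18 in LP and 3.28, 1.59 and 2.74 in tumours, and the 6 groups outside monocytes overlapped with their neighbours in the order.

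The pair Ms4a6b and Ms4a6c was of moderate level in macrophages and monocytes and near 2 RPKM in neutrophils. Ms4a6b read 4.80, 5.11 and 5.15 in LP MHCIIhi macrophages and 5.78, 5.08 and 5.30 in LP MHCIIlow macrophages. In tumours the MHCIIhi libraries read 6.26, 6.30 and 6.27 and the MHCIIlow libraries 6.27, 6.38 and 6.31, a narrow band above every other library of the series. Monocytes lay between by mean only, with 5.42, 5.68 and 5.44 in LP and 6.12, 5.58 and 6.24 in tumours, and both overlapped LP MHCIIlow macrophages. Neutrophils stood at 0.51 ± 0.29 in LP and 0.67 ± 0.85 in tumours.

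Ms4a6c read 4.69, 4.99 and 5.01 in LP MHCIIhi macrophages and 4.41, 4.47 and 4.78 in LP MHCIIlow macrophages. The tumour subsets read 5.93, 5.45 and 5.80 and 5.68, 5.64 and 5.39. All 6 tumour macrophage libraries therefore lay above all 6 LP macrophage libraries. Monocytes read 4.94, 5.57 and 5.40 in LP and 6.18, 5.94 and 5.91 in tumours, and neutrophils stood at 0.62 ± 0.72 and 1.16 ± 0.08.

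Ms4a3, the progenitor gene, was nearly absent. It had 40, 17 and 2 reads in the 3 LP neutrophil libraries and 0, 16 and 0 reads in LP monocytes. No read was counted in the other 18 libraries, in which a count of 0 allows up to 3 reads, and all tumour libraries were among these. Of the 5 granulocyte progenitor markers, 4 were in the table, Ms4a3 among them. With Ms4a3 left out, the others summed to 0.635 to 1.73 RPKM in the LP neutrophil gate and 0.505 to 0.845 RPKM in that of tumours. In tumour monocytes, where Ms4a3 had no read, the same markers summed to 2.08 to 2.97 RPKM, led by Prtn3, a serine protease of immature granules, with 66 to 128 reads.

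Tumour and LP were compared within each population by limma's moderated test with Benjamini-Hochberg adjustment over the 12878 genes, and a gene was called at an adjusted p under 0.05. Standard errors of these log2 differences were 0.36 for Ms4a4a, 0.41 for Ms4a4c, 0.29 for Ms4a6b, 0.25 for Ms4a6c, 0.24 for Ms4a6d, 0.45 for Ms4a7 and 0.93 for Ms4a8a.

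**Figure D3:**
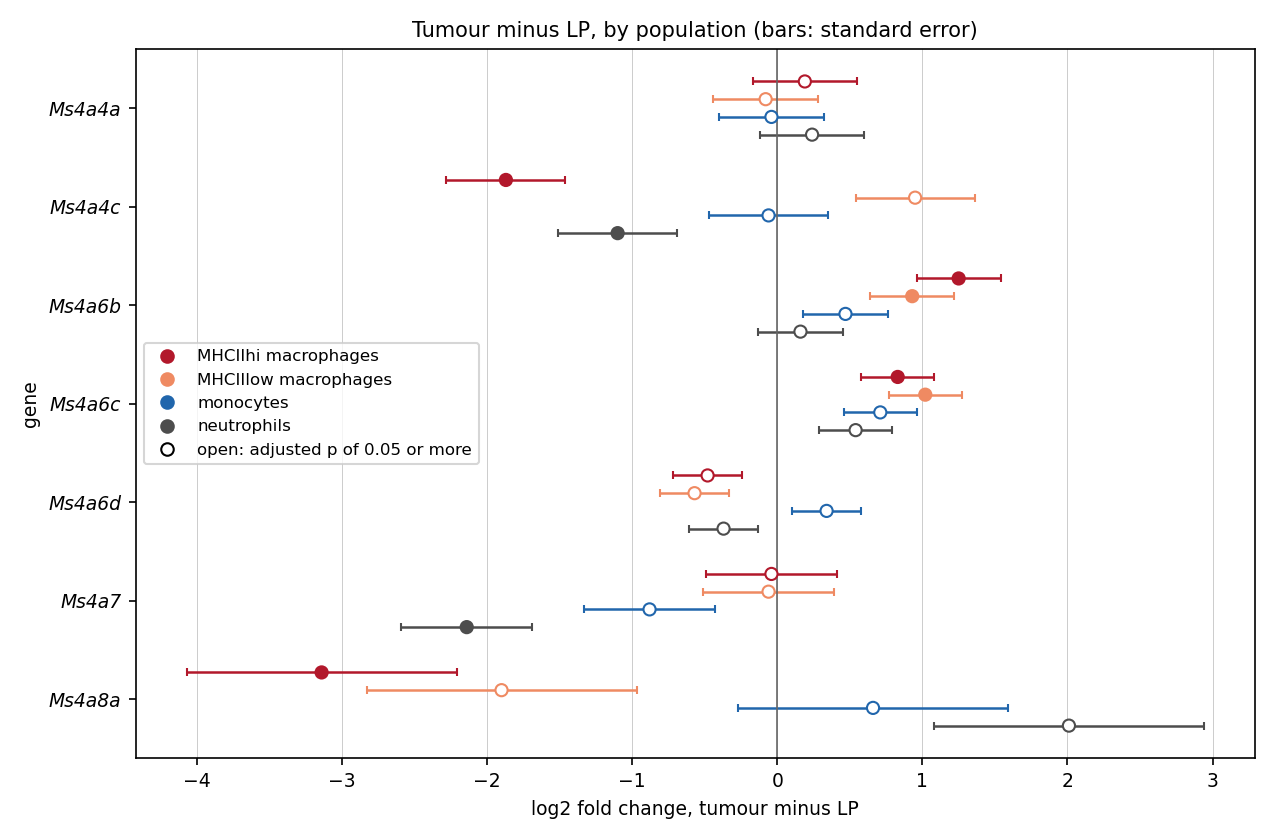
Log2 fold change of tumour over LP (horizontal axis) for 7 genes in 4 populations, with bars for the standard error, filled points for an adjusted p under 0.05 and open points for the rest. Ms4a6b and Ms4a6c were called to the right of 0 in both macrophage subsets, and Ms4a4c and Ms4a8a were called to the left in MHCIIhi macrophages.

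In MHCIIhi macrophages 2 members were higher and 2 lower in tumours than in LP, 4 of 7 called where 19.5% of all genes were. Ms4a6b was 2.39-fold higher (log2 1.25, limma adjusted p = 0.00363) and Ms4a6c 1.78-fold higher (log2 0.83, adjusted p = 0.0217). Ms4a4c was 3.66-fold lower (log2 -1.87, adjusted p = 0.00274) and Ms4a8a 8.81-fold lower (log2 -3.14, adjusted p = 0.0204). The LP and tumour libraries did not overlap for these 4 genes nor for Ms4a6d, which differed by -0.48 (adjusted p = 0.173), 5 of 7 against 43.0% of all genes. Ms4a4a differed by 0.19 (adjusted p = 0.79) and Ms4a7 by -0.04 (adjusted p = 0.975). The median over the 7 members was -0.04.

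The calls for Ms4a4c and Ms4a6b held in all 17 alternatives. Ms4a6c was called in 14 of 17, and its adjusted p was 0.0918 without LP pool III, 0.0844 without tumour pool I and 0.0692 without tumour pool VII. BE692007, the antisense gene over Ms4a6c, differed by 1.60 in the same direction (adjusted p = 0.0617), and its part in the Ms4a6c value was not tested. Ms4a8a rested on 1 tumour library. Without tumour pool VII its difference was -1.79 (adjusted p = 0.156), without tumour pool I it was -4.15 (adjusted p = 0.00396), and it was not called either without LP pool III (0.0572) or LP pool V (0.0579), nor with the libraries of these 2 groups alone (0.128). Markers of other cells moved with the fall of Ms4a4c. The 7 monocyte markers, all measured, summed to 59.1 to 66.8 RPKM in LP MHCIIhi macrophages and to 13.2 to 18.2 in tumours, and the 5 dendritic cell markers, all measured, to 44.4 to 65.0 and to 5.04 to 14.1, with no marker of either list at 0 throughout. The 8 neutrophil markers summed to 51.7 to 56.8 RPKM in LP and 154 to 225 in tumours with Ly6g at 0 in both, and the 5 fibroblast markers to 6.43 to 19.1 and 0.177 to 1.17. The part of these cells in the results was not tested.

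In MHCIIlow macrophages the same pair was higher in tumours, and 2 of 7 members were called where 23.3% of all genes were. Ms4a6c was 2.02-fold higher (log2 1.02, limma adjusted p = 0.00474) and Ms4a6b 1.91-fold higher (log2 0.93, adjusted p = 0.0219). Their libraries did not overlap between tissues, nor did those of Ms4a6d (log2 -0.57, adjusted p = 0.0903), 3 of 7 against 42.1% of all genes. Ms4a4c was 0.95 higher on the log2 scale with an adjusted p of 0.108, and Ms4a8a differed by -1.90 with an adjusted p of 0.154. Ms4a4a and Ms4a7 differed by -0.08 and -0.06 (adjusted p = 0.92 and 0.958). The median over the 7 members was -0.06, against 0.06 over all genes.

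Ms4a6c kept its call in all 17 alternatives and Ms4a6b in 13. Its adjusted p was 0.0937 without LP pool III, 0.0654 without LP pool IV, 0.0662 without tumour pool V and 0.0539 without tumour pool VII. BE692007 differed by 0.98 (adjusted p = 0.258). Without tumour pool I Ms4a8a differed by -2.95 and was called (adjusted p = 0.0267). Limma's voom on the reads recovered from the values also called Ms4a6d (adjusted p = 0.0169) and Ms4a8a (adjusted p = 0.0236) in this subset. Markers of other cells moved here too. The 7 monocyte markers summed to 127 to 453 RPKM in LP and 13.4 to 24.7 in tumours, the 5 fibroblast markers to 18.3 to 51.7 and 0.318 to 0.644, and the 8 neutrophil markers to 31.0 to 89.2 and 256 to 691. All members of these lists were measured, Ly6g was at 0 in LP and Pdgfra at 0 in tumours, and their part in the results was not tested.

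Put as a ratio of RPKM within a library, Ms4a6d exceeded Ms4a6b 13.3-fold in LP MHCIIhi and 13.1-fold in LP MHCIIlow macrophages. In their tumour counterparts it did so 3.98-fold and 4.63-fold. In monocytes the same ratio was 8.51 in LP and 7.78 in tumours. For Ms4a6d over Ms4a6c the macrophage ratios were 14.5 and 23.4 in LP and 5.84 and 7.78 in tumours. Ms4a6b made up 2.56% and 2.98% of the family's RPKM in the LP subsets and 6.08% and 6.48% in the tumour subsets. These ratios and shares are descriptions and were not tested.

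In monocytes no member was called, 0 of 7 where 9.29% of all genes were, by limma on the deposited values. At an unadjusted p under 0.05 the count was 1, Ms4a6c, and voom also called 1. Ms4a6c differed by 0.71 (unadjusted p = 0.00963, limma adjusted p = 0.0802) and was called in 6 of 17 alternatives, while BE692007 differed by 0.15 (adjusted p = 0.928). LP and tumour libraries did not overlap for Ms4a6c, Ms4a7 (log2 -0.88, adjusted p = 0.255) and Ms4a8a (log2 0.66, adjusted p = 0.754), 3 of 7 against 31.4% of all genes. Ms4a4c, the monocyte member, differed by -0.06 (adjusted p = 0.963). Other marker lists differed in both directions between the LP and tumour gates. The B and plasma cell markers, 5 of 6 measured, summed to 156 to 571 RPKM in LP and 0.182 to 4.67 in tumours. The 5 fibroblast markers summed to 9.5 to 25.2 and at most 0.178, with 4 at 0 in tumours. The 5 MHC class II genes summed to 1740 to 2350 and 771 to 1200. The 8 neutrophil markers ran the other way, at most 139 in LP and 170 to 305 in tumours. The part of other cells in the results was not tested. The 7 monocyte markers had no common direction between these gates. Chil3, a chitinase-like secreted protein that led their sum, stood at 9.32 ± 0.35 in LP and 11.21 ± 0.21 in tumour monocytes, Vcan at 5.50 ± 0.29 and 4.22 ± 0.49, and Ccr2 at 6.81 ± 0.15 and 6.49 ± 0.40. The median over the 7 members was 0.34.

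In neutrophils 2 of 7 members were called, both lower in tumours, where 32.2% of all genes were called. Ms4a7 differed by -2.14 (limma adjusted p = 0.00108) and its libraries did not overlap, 1 of 7 against 40.1% of all genes, but it stood on 19 to 66 reads a library in LP and 2 to 6 in tumours. It was not called on the log2(RPKM + 1) scale (log2 -0.38, adjusted p = 0.223), with the libraries of these 2 groups alone (adjusted p = 0.131) or by voom (adjusted p = 0.287). Without tumour neutrophil pool I, which had the lowest value, it differed by -1.41 (adjusted p = 0.00434). Ms4a4c differed by -1.10 (adjusted p = 0.0465) with overlapping libraries and was called in 6 of 17 alternatives. Ms4a8a differed by 2.01 (adjusted p = 0.105). The median over the 7 members was 0.16, against -0.12 over all genes.

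LP neutrophils of pool V were the highest of their group for Ms4a4a, Ms4a4c, Ms4a6c, Ms4a6d and Ms4a8a. Without that library, Ms4a4a differed by 0.86 (adjusted p = 0.0201), Ms4a6c by 0.95 (adjusted p = 0.00122) and Ms4a8a by 2.83 (adjusted p = 0.0364), all 3 then called, and Ms4a4c by -0.76 (adjusted p = 0.214). The 8 neutrophil markers themselves summed to 12200 to 16100 RPKM in LP and 23700 to 32800 in tumour neutrophils. Markers of other cells differed between the neutrophil gates in both directions. The dendritic cell markers, 5 of 5 measured, summed to 76.0 to 146 RPKM in LP and 2.13 to 17.2 in tumour neutrophils, and the B and plasma cell markers, 5 of 6, to 356 to 1290 and 0.65 to 19.8. The epithelial markers, 6 of 6, summed to 12.6 to 61.0 in LP and 149 to 304 in tumours, and the monocyte markers, 7 of 7, to 650 to 807 and 924 to 1290. No marker of the dendritic, B and plasma, epithelial and monocyte lists was at 0 in all libraries of a group. The 5 MHC class II genes summed to 1550 to 3470 RPKM in LP and 441 to 855 in tumours. The 5 fibroblast markers summed to 17.9 to 35.1 and 1.26 to 1.57, with Col1a2 and Pdgfra at 0 in tumours. The 9 macrophage markers had no common direction, with Cd68 at 9.09 ± 0.04 in LP and 8.59 ± 0.04 in tumours and Adgre1, the gene of F4/80, at 4.80 ± 0.20 and 5.67 ± 0.42. The part of these cells in the neutrophil differences was not tested.

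The next question was whether the MHCIIhi and MHCIIlow subsets differed within a tissue. In LP only Ms4a4c was called, 1 of 7 where 7.70% of all genes were, and it was 7.52-fold lower in MHCIIlow than in MHCIIhi macrophages (log2 -2.91, limma adjusted p = 0.000153). This call held in all 18 alternatives, with a difference of -2.31 (adjusted p = 0.00606) when the pool was kept as a block. The 7 monocyte markers summed to 453, 127 and 142 RPKM in LP MHCIIlow pools II, III and IV. In LP MHCIIhi macrophages they summed to 59.1 to 66.8. The 5 dendritic cell markers summed to 3.91 to 14.3 in LP MHCIIlow and 44.4 to 65.0 in LP MHCIIhi macrophages. The part of these cells in the Ms4a4c difference was not tested. Ms4a8a differed by 0.68 (adjusted p = 0.784), Ms4a6d by 0.35 (adjusted p = 0.462) and Ms4a7 by -0.20 (adjusted p = 0.892). The median over the 7 members was 0.07, against -0.03 over all genes.

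Between the tumour subsets 0 of 7 members were called by limma where 1.13% of all genes were, and none had an unadjusted p under 0.05. Ms4a4c differed by -0.09 (adjusted p = 1.0) and Ms4a8a, whose libraries were the most uneven, by 1.92 (unadjusted p = 0.0517, adjusted p = 0.452). The difference between the subsets in their tumour effect was therefore tested itself, with the same LP and tumour libraries as in the comparisons above. For Ms4a4c the tumour effect was 2.82 higher on the log2 scale in MHCIIlow than in MHCIIhi macrophages (SE 0.58, limma adjusted p = 0.0184), 1 of 7 members where 1.46% of all genes were called. It was called in 19 of 23 alternatives, and the adjusted p was 0.0559 without LP MHCIIhi pool IV, 0.0584 without tumour MHCIIhi pool VII, 0.0536 without tumour MHCIIlow pool V and 0.072 with the libraries of these 4 groups alone.

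The tumour effect of monocytes was set against the mean of both macrophage subsets in the same way, with 0 of 7 members called by limma where 9.19% of all genes were. Ms4a8a had the largest value, 3.18 (SE 1.13, adjusted p = 0.0883), and Ms4a6d followed with 0.86 (SE 0.29, adjusted p = 0.0684). In 8 alternatives other than leaving out a library, 1 to 3 members passed, with 3 by voom, which called 1764 of the 12878 genes. For neutrophils against monocytes 0 of 7 tumour effects differed where 9.11% of all genes did, with Ms4a7 at -1.26 (adjusted p = 0.228) and Ms4a8a at 1.35 (adjusted p = 0.575).

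Macrophages were then compared with monocytes of the same tissue. The 3 comparisons made in each tissue share its monocyte libraries, and their values are given side by side.

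**Figure D4:**
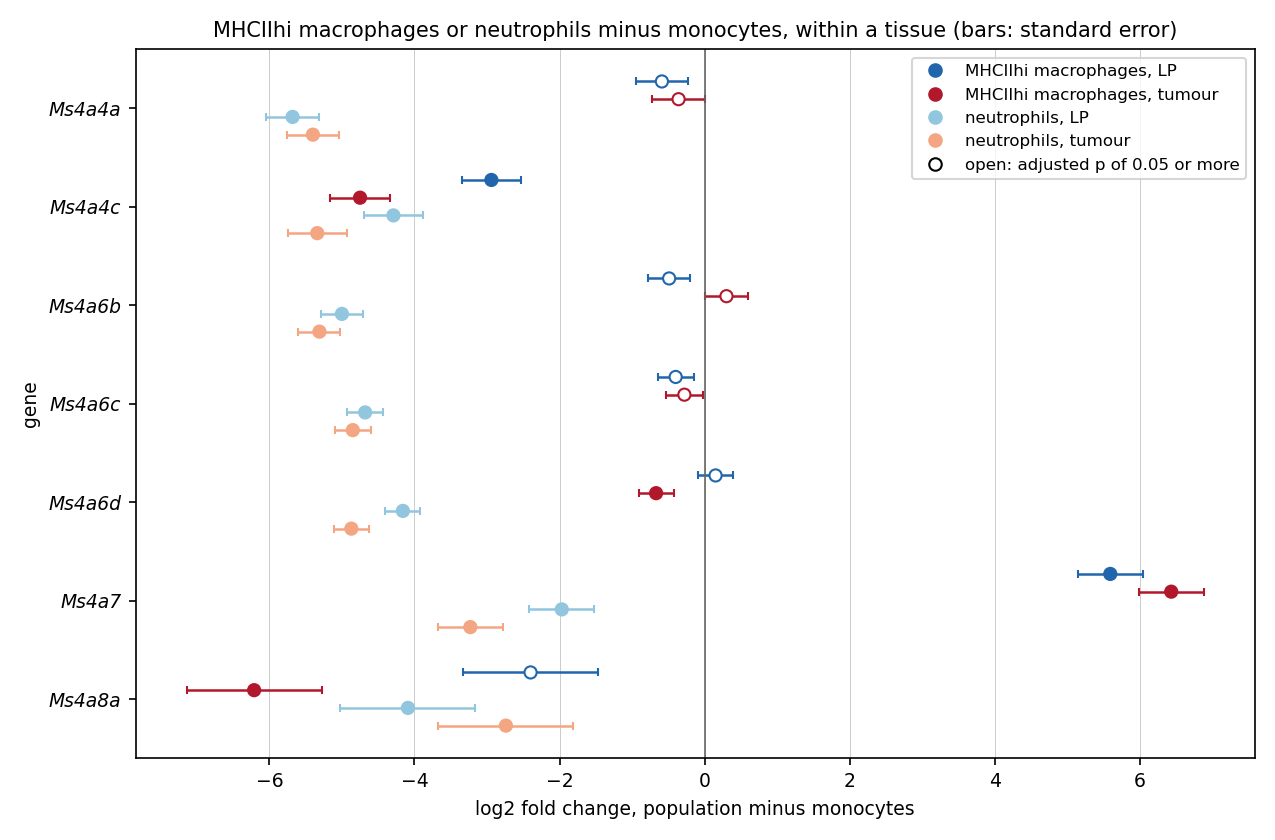
Log2 fold change of MHCIIhi macrophages and of neutrophils over monocytes (horizontal axis) for 7 genes in LP and tumour, with bars for the standard error and filled points for an adjusted p under 0.05. Ms4a7 alone lay far to the right in macrophages, Ms4a4c lay to the left in all 4 comparisons and every neutrophil point was filled and to the left of 0.

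Ms4a7 was higher in macrophages than in monocytes by 48.3-fold in the LP MHCIIhi subset (log2 5.59, limma adjusted p = 2.43e-08), 42.0-fold in the LP MHCIIlow subset (log2 5.39, adjusted p = 2.12e-08), 86.3-fold in the tumour MHCIIhi subset (log2 6.43, adjusted p = 1.09e-09) and 74.1-fold in the tumour MHCIIlow subset (log2 6.21, adjusted p = 2.21e-09). Ms4a4c was lower in macrophages by 7.67-fold, 57.7-fold, 27.0-fold and 28.7-fold in the same order, with log2 values of -2.94, -5.85, -4.75 and -4.84. Its adjusted p was 3.07e-05 or less in all 4. These were the only 2 members called in every macrophage comparison.

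Ms4a8a was 73.8-fold lower in tumour MHCIIhi macrophages than in tumour monocytes (log2 -6.21, limma adjusted p = 2.45e-05) and 19.5-fold lower in tumour MHCIIlow macrophages (log2 -4.29, adjusted p = 0.00123). These folds rest on uneven libraries. Without pool VII or pool I of the macrophages they were -4.86 or -7.22 on the log2 scale in the MHCIIhi subset and -3.59 or -5.34 in the MHCIIlow subset, with adjusted p of 0.0115 or less, and with the pool as a block they were -5.50 and -3.58. In LP the differences were -2.40 (limma adjusted p = 0.0733) and -1.72 (adjusted p = 0.179), so neither was called by the main test. The LP monocyte libraries nevertheless lay above all libraries of both LP macrophage subsets. With the libraries of the compared groups alone both differences were called (limma adjusted p = 0.000562 and 0.00677). Voom also called both (adjusted p = 0.000103 and 0.00125). They were called in 8 and 4 of 18 alternatives. With the pool as a block the LP MHCIIhi value was called (adjusted p = 0.0103), as was Ms4a6b (log2 -0.49, adjusted p = 0.0276), which took that comparison from 2 to 4 members called.

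Over the members, 2 of 7 were called in LP MHCIIhi macrophages where 20.1% of all genes were, 3 of 7 in LP MHCIIlow macrophages where 29.5% were, 4 of 7 in tumour MHCIIhi macrophages where 32.1% were and 3 of 7 in tumour MHCIIlow macrophages where 32.0% were. The member medians were -0.49, -0.51, -0.36 and -0.44, against 0.00 to -0.03 over all genes. The remaining calls were small ones. Ms4a6c was lower in LP MHCIIlow macrophages by 0.74 on the log2 scale (log2 -0.74, adjusted p = 0.0284), called in 12 of 18 alternatives. The call was lost with the pool as a block (log2 -0.50, adjusted p = 0.224) and under quantile normalization (0.113). It was also lost without LP MHCIIlow pool II (0.0911) or III (0.0775), or LP monocyte pool IV (0.12) or V (0.0855). Ms4a6d was lower in tumour MHCIIhi macrophages (log2 -0.67, adjusted p = 0.0363), which was lost with the block (log2 -0.49, adjusted p = 0.0708) and without tumour MHCIIhi pool VII (adjusted p = 0.177), tumour monocyte pool I (0.0643) or pool V (0.136). Ms4a4a, at log2 differences of -0.59, -0.51, -0.36 and -0.56, was called in none.

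Neutrophils carried less RNA of all 7 tested members than monocytes did, in both tissues. In LP 7 of 7 were called lower where 30.4% of all genes were, with a median difference of -4.29 against -0.24 over all genes. In tumours 7 of 7 were called lower where 34.9% were, with a median of -4.87 against -0.36. Ms4a4a fell by 5.68 on the log2 scale in LP (limma adjusted p = 1.6e-10) and by 5.40 in tumours (adjusted p = 2.19e-10). The smallest differences were those of Ms4a7, itself low in monocytes, at -1.97 (adjusted p = 0.000943) and -3.23 (adjusted p = 3.96e-06), and of Ms4a8a in tumours, at -2.74 (adjusted p = 0.0158). The last was lost without tumour neutrophil pool II (log2 -2.27, adjusted p = 0.0714). Without LP neutrophil pool V the LP values of Ms4a4a and Ms4a8a were -6.30 and -4.91, against -5.68 and -4.09 with it, and without tumour neutrophil pool I the tumour value of Ms4a7 was -2.50. Library scaling shifted all genes in these comparisons by -1.01 to 0.45 on the log2 scale, without changing the direction of any member.

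Other genes of the superfamily were taken from a list of 14, of which 6 were in the table and 5 were tested. Tmem176a and Tmem176b, related membrane proteins of dendritic cells and macrophages, and Ms4a14 were higher in macrophages than in monocytes in all 4 comparisons, 3 of 5 called higher in each and none lower, where 20.1% to 32.1% of all genes were called in either direction. Tmem176a exceeded monocytes by 2.86, 1.74, 2.77 and 2.31 on the log2 scale in the order used above and Tmem176b by 2.60, 1.81, 2.46 and 1.97. Ms4a14 stood at 4.89 ± 0.09 and 4.91 ± 0.27 in the LP subsets and 4.50 ± 0.25 and 4.10 ± 0.46 in the tumour subsets, and at -0.96 ± 1.83 in LP monocytes, and it had no read in any neutrophil library. Ms4a4d, Tmem176a (log2 -1.57, limma adjusted p = 0.00568) and Tmem176b (log2 -1.37, adjusted p = 0.00904) were lower in tumour than in LP neutrophils, 3 of 5 called where 32.2% of all genes were, with Ms4a4d at 0 reads in all tumour neutrophil and tumour MHCIIlow libraries and at 1 to 10 reads in LP neutrophils. No gene of this list was called in MHCIIhi macrophages, where 19.5% of all genes were. Ms4a4d alone was called in MHCIIlow macrophages, from 15 to 59 reads a library in LP, and Ms4a14 alone in monocytes (log2 -4.38, adjusted p = 0.0138), where its libraries overlapped. Against monocytes, neutrophils were lower for 3 of the 5 genes in LP and 4 of the 5 in tumours, and higher for none. The shares of all genes called lower were 30.4% and 34.9%.

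Of 8 genes known to work with Ms4a proteins, 7 were in the table and were tested. Card9, the adaptor downstream of Dectin-1, was higher in tumour than in LP MHCIIhi macrophages (log2 1.71, limma adjusted p = 0.0145), MHCIIlow macrophages (log2 1.90, adjusted p = 0.00578) and neutrophils (log2 1.34, adjusted p = 0.0369). Clec7a, the gene of Dectin-1, was higher in tumour MHCIIlow macrophages (log2 2.15, adjusted p = 0.000243) and, within LP, lower in MHCIIlow than in MHCIIhi macrophages (log2 -1.79, adjusted p = 0.0047). Between these LP subsets 2 of 7 partner genes were called lower, where 7.70% of all genes were called. Syk stood at 5.03 ± 0.21 in LP MHCIIlow and 6.17 ± 0.10 in LP MHCIIhi macrophages. Tyrobp, the adaptor of Trem2, was higher in both tumour subsets (log2 1.08 and 1.10, adjusted p = 0.016 and 0.012), and Syk, the kinase, was lower in tumour MHCIIhi macrophages (log2 -0.63, adjusted p = 0.0198). In all, 2 rose and 1 fell in MHCIIhi macrophages (3 of 7 against 19.5% of all genes called), 3 rose in MHCIIlow macrophages (3 of 7 against 23.3%), none was called in monocytes (against 9.29%) and 1 rose in neutrophils (1 of 7 against 32.2%). Trem2 separated macrophages from monocytes as Ms4a7 did, by 2.30, 3.29, 1.72 and 2.37 on the log2 scale, and was called higher in all 4. Against monocytes, neutrophils were lower for 1 of the 7 partner genes in LP and 1 in tumours, where 30.4% and 34.9% of all genes were called lower. Trem2 was the lower one in both (log2 -4.05 and -3.82). The median difference over the 7 partner genes was 1.66 in LP, against -0.24 over all genes. In tumours it was 1.11, against -0.36.

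Across the 24 libraries, which share depth and sort with every gene, likeness of pattern was described by Pearson's r of log2 RPKM. Ms4a4a, Ms4a6b, Ms4a6c and Ms4a6d followed one another, with r from 0.944 to 0.978, and for each of them neutrophils lay far under all other libraries. Ms4a7 had r of 0.647 to 0.728 with these 4, and -0.265 with Ms4a4c and -0.329 with Ms4a8a, while Ms4a4c and Ms4a8a had 0.655 with each other. The genes closest to Ms4a7 were Rab3il1 (r = 0.981), Hexa (0.976) and Tspan4 (0.973). Those closest to Ms4a4c were Ccr2 (0.959), the chemokine receptor of inflammatory monocytes, Uck2 (0.936) and Havcr2 (0.933). Closest to Ms4a4a were Mdfic (0.986), Slc7a8 (0.979) and Hdgf (0.978), and to Ms4a6d Mdfic (0.984), Dusp3 (0.981) and Ms4a4a (0.978). For Ms4a6b they were Clns1a (0.982), Plxnb2 (0.981) and Slc7a7 (0.978), and for Ms4a6c Fcgr2b (0.983), the inhibitory Fc gamma receptor, Ccdc50 (0.977) and Clec4a3 (0.977). Ms4a8a had no partner as close, with Tspan5 at 0.883, Ppig at 0.877 and Papss2 at 0.874.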

How the data were processed

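Sorted myeloid cells from colon LP and tumours were sequenced with SMARTSeq v2. The authors aligned reads with STAR 2.3 to GRCm38, counted them per GENCODE gene with featureCounts 1.5, kept genes that averaged at least 10 reads in some population and deposited log2 RPKM made with edgeR. Symbols were matched for 17190 of 17301 identifiers. From the log2 RPKM, whole reads could be recovered for 100% of 415224 values (tolerance 0.01 read), with gene lengths equal to the annotated exon bases for 8 of 8 members. The total was 12.8 to 41.7 M reads a library. No pair of libraries was a copy (highest r over genes 0.9249).

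Groups followed the labels. Limma 3.58.1 (R 4.3.3) with a mean-variance trend was fitted to all 24 libraries, for 15 comparisons, over the 12878 genes with a mean of 1 RPKM or more in a group. Benjamini-Hochberg adjustment was made within each comparison, with a threshold of 0.05. Voom on the recovered reads called 3797, 4119, 1764 and 2768 genes in the 4 tumour comparisons (MHCIIhi, MHCIIlow, monocytes, neutrophils). Alternatives were 12 settings and each library left out. The script was tested on simulated data.

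The labels give each library a donor number, taken here as the tissue pool that libraries of 1 tissue shared. Same-numbered libraries of 29 pairs had deviations from group means correlated at -0.0661 to 0.255 (median 0.0169).

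Named genes were the 8 members, 14 further superfamily genes, 8 partner genes and the 3 genes closest to each member by r. Members and lists were chosen with earlier results of these data known. Upstream sequence came from RefSeq.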

Additional observations from a re-analysis of the deposited data

Results flagged for a closer look

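Ms4a4c differed between the macrophage subsets in its tumour effect. It was lower in tumour than in LP in the MHCIIhi subset (log2 -1.87, from 4.47 ± 0.25 to 2.60 ± 0.52, n = 3) and went from 1.56 ± 0.85 to 2.51 ± 0.38 in the MHCIIlow subset (log2 0.95, limma adjusted p = 0.108), a difference between the effects of 2.82 (SE 0.58, limma adjusted p = 0.0184). All 3 tumour MHCIIhi libraries lay under all 3 LP libraries, and in the MHCIIlow subset the libraries overlapped.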

How the results depend on the processing

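Of 105 values of a member in a comparison, 36 were called and none of these changed sign in an alternative. In all, 22 of the uncalled values did, with adjusted p of 0.239 or more. The limits are small groups of pooled mice, 2 to 6 reads of Ms4a7 a library in tumour neutrophils, a single low library of Ms4a8a in tumour MHCIIhi macrophages, shared exons at Ms4a6c, and neutrophil library sizes that were far smaller relative to their reads than those of the other cells. The cause of the changes listed here was not tested.

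Counts over all genes under an alternative are given here only for voom on the recovered reads. Changes in member counts under the other alternatives cannot be set against the genes as a whole. The count of members called in tumour against LP was 2 in MHCIIlow macrophages. It was 4 under array weights, 4 under voom and 5 under voom with summed reads as library sizes. In monocytes it was 0, with 1 under log2(RPKM + 1), quantile normalization, median centring, array weights and both voom fits. In neutrophils it was 2, with 1 under array weights and 0 with the compared libraries alone and under both voom fits. For MHCIIlow against MHCIIhi macrophages in LP it was 1, with 3 under voom with summed reads. For macrophages against monocytes, voom gave 5 in the LP MHCIIhi subset (2 as reported), 5 in the LP MHCIIlow subset (3) and 5 in the tumour MHCIIlow subset (3). Of all 12878 genes, voom called 4075, 4820 and 5433 in these comparisons, against 2588, 3796 and 4115 by the test used above. Voom with summed reads gave 6 and 5 in the LP subsets, and the compared libraries alone gave 5 in the LP MHCIIhi subset. The difference between subsets in tumour effect had 1 call, with 0 from the compared libraries alone. The difference between monocytes and macrophages had 0, with 2 under log2(RPKM + 1) and array weights, 1 under a mean of 5 RPKM, quantile normalization, median centring and the compared libraries alone, and 3 under both voom fits.

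With the pool kept as a replicate block, 4 members were called in LP MHCIIhi macrophages against monocytes in place of 2, Ms4a6c (log2 -0.50, limma adjusted p = 0.224) and Ms4a6d (log2 -0.49, adjusted p = 0.0708) lost the calls given above, and no other call of a member changed. Ms4a7 between the LP subsets was then 0.20.

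Leaving out 1 library at a time gave 2 to 4 members called for tumour against LP in MHCIIhi macrophages, 1 to 3 in MHCIIlow macrophages, 0 to 0 in monocytes and 1 to 4 in neutrophils. The counts were 1 to 1 between LP subsets, 0 to 0 between tumour subsets, 2 to 2 and 2 to 3 for LP macrophages (MHCIIhi, MHCIIlow) against monocytes, 3 to 4 and 3 to 3 for tumour macrophages, 7 to 7 and 6 to 7 for LP and tumour neutrophils, and 0 to 1 for each difference of tumour effects.

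Uncalled values with a changed sign were these. For tumour against LP, Ms4a7 in MHCIIhi macrophages was 0.08 under quantile normalization and 0.06 under voom with summed reads, and Ms4a4a in MHCIIlow macrophages was 0.03 under quantile normalization and Ms4a7 0.00 under voom with summed reads. In monocytes median centring gave 0.05 for Ms4a4a and 0.03 for Ms4a4c, and in neutrophils voom with summed reads gave -0.17 for Ms4a4a and -0.15 for Ms4a6b. Between tumour subsets Ms4a4a was 0.10 under quantile normalization and Ms4a4c 0.05 under voom with summed reads. For macrophages against monocytes, quantile normalization gave 0.21 for Ms4a6b (LP MHCIIlow), 0.07 for Ms4a6c (tumour MHCIIhi) and 0.06 for Ms4a4a and 0.12 for Ms4a6d (tumour MHCIIlow), and voom with summed reads gave 0.14 for Ms4a6b and 0.01 for Ms4a6d in the same MHCIIlow comparisons. For differences of tumour effects, Ms4a7 between subsets was 0.02 under array weights and 0.03 under voom, Ms4a4a between monocytes and macrophages was 0.05 under median centring, and Ms4a7 between neutrophils and monocytes was 0.11 under log2(RPKM + 1).

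Leaving out 1 library, the ranges that crossed 0 were, for tumour against LP, -0.18 to 0.14 for Ms4a7 in MHCIIhi macrophages, -0.24 to 0.10 for Ms4a4a and -0.39 to 0.11 for Ms4a7 in MHCIIlow macrophages, -0.18 to 0.05 for Ms4a4a and -0.16 to 0.04 for Ms4a4c in monocytes, and -0.30 to 0.86 for Ms4a4a and -0.34 to 0.42 for Ms4a6b in neutrophils. Between LP subsets they were -0.11 to 0.23 for Ms4a4a and -0.37 to 0.13 for Ms4a7, between tumour subsets -0.35 to 0.17 for Ms4a4c, and for LP MHCIIlow macrophages against monocytes -0.32 to 0.03 for Ms4a6b. For the difference of tumour effects between subsets they were -0.27 to 0.05 for Ms4a6d, -0.35 to 0.15 for Ms4a7 and -0.11 to 2.25 for Ms4a8a, between monocytes and macrophages -0.23 to 0.00 for Ms4a4a, and between neutrophils and monocytes -0.27 to 0.90 for Ms4a4a and -0.46 to 0.24 for Ms4a6c.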
